A study of Mus musculus with 22 samples.

Results

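The muscle transcription factors of the MyoD family, their MEF2 partners, the satellite cell factor Pax7 and the fusion protein Mymk were followed, gene by gene, in the brown adipose tissue (BAT) of CPEB2-WT and CPEB2-KO mice. The members were 9 genes listed by name, each found by its Ensembl identifier among the 55487 genes counted in both cohorts. In GRCm38 coordinates of GENCODE M21, Myf5 lies at chr10:107482908-107486134 (minus strand) beside Myf6 at chr10:107492853-107494737 (minus), Myod1 at chr7:46376474-46379099 (plus), Myog at chr1:134289989-134292548 (plus), Pax7 at chr4:139737062-139833528 (minus), Mymk at chr2:27061636-27072179 (minus), Mef2a at chr7:67231163-67372858 (minus), Mef2c at chr13:83504034-83667080 (plus) and Mef2d at chr3:88142372-88172086 (plus). They comprise 4 myogenic regulatory factors (Myf5, Myod1, Myog and Myf6), 3 MEF2 factors (Mef2a, Mef2c and Mef2d), Pax7 and Mymk.

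CPEB2 is a protein that binds mRNA and controls its translation. The mice were C57BL/6, male by their labels, and KO mice lacked CPEB2 in all tissues. The untreated cohort comprised 5 WT and 5 KO mice of 21 to 25 weeks that received no virus. According to the paper, these mice were deprived of food for some hours before collection. It names no such step for the AAV cohort. In the AAV cohort, an adeno-associated virus of serotype AAV2/8 carrying either GFP or PRDM16 was injected into the interscapular BAT of WT and KO mice at 16 weeks. Each mouse received 20000000000 viral genomes in 30 µl, spread as 10 µl per site, and the tissue was collected 9 weeks later, at 25 weeks. Each of the 4 combinations of genotype and virus held 3 mice, and a library is named by genotype, virus and number (KO + AAV-GFP 1). With 1 library per mouse, 22 libraries were read as counts per gene, whose totals ran from 55320927 to 162721202 in the untreated and from 61636889 to 143005309 in the AAV cohort.

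Brown adipocytes and skeletal muscle share precursors that have expressed Myf5 in the embryo, and PRDM16 is known for directing such cells to brown fat instead of muscle. In muscle, Pax7 marks the satellite cells, the resident stem cells. Myf5 and Myod1 commit them to the muscle lineage, Myog drives their differentiation, Myf6 (also called Mrf4) is the member of the family that persists in adult fibres, and Mymk (myomaker) lets myoblasts fuse. The MyoD family binds E-boxes in DNA together with E proteins, and MEF2 factors bind A/T-rich sites beside them. MEF2 factors are not confined to muscle, and Mef2c is also active in endothelial cells and neurons.

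The members' own promoters differ in the letters that these factors read. RefSeq start sites of GRCm38.p6 were given for 6 of the 9 members, Myf5, Myog, Pax7, Mef2a, Mef2c and Mef2d, with 3 starts for Mef2c. The 4 windows shown hold the 250 bases before the start and the first 10 transcribed bases, written 5′ to 3′ on the gene's strand. They show 2 regulators that were read in few libraries and 2 MEF2 genes that were read in all. Capitals mark the E-box CANNTG and CTANNNNTA, letters found in many MEF2 sites, searched on both strands, where neighbouring matches can overlap.
Myog, chr1:134289754-134290013, plus strand: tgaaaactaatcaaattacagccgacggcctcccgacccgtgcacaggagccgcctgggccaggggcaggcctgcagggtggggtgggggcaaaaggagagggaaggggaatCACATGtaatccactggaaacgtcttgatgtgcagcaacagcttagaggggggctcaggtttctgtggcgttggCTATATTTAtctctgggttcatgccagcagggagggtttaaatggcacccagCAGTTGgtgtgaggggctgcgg
Myf5, chr10:107486125-107486384, minus strand: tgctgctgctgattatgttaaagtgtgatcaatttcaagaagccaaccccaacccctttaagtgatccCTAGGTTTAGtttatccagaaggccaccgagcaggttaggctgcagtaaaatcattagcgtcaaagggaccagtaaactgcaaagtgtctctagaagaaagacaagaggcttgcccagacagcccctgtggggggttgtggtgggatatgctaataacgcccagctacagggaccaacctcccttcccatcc
Mef2a, chr7:67372849-67373108, minus strand: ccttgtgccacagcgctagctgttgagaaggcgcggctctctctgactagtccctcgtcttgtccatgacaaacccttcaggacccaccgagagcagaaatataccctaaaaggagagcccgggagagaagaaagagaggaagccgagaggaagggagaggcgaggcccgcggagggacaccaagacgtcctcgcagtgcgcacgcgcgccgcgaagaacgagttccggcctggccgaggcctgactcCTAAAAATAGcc
Mef2d, chr3:88142122-88142381, plus strand: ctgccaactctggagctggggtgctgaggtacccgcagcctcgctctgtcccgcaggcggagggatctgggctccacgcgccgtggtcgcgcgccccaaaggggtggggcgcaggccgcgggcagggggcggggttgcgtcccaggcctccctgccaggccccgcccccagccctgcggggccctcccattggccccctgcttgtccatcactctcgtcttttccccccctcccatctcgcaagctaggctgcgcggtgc
The Myog window held 2 E-boxes, which start 138 and 12 bases before the transcription start, and a CTATATTTA 64 bases before it. The Mef2a window held no E-box, and CTAAAAATA lay across its start. The Mef2d window held neither, and the Myf5 window held overlapping matches around CTAGGTTTA and no E-box. Among the windows not shown, that of Pax7 held neither, the first Mef2c start had 2 E-boxes, the second had neither, and the third had 1 E-box and 1 CTANNNNTA, so the matches did not separate the regulators from the MEF2 genes. Of 32851 mouse promoter windows of the same length, 67.7% held an E-box and 19.4% CTANNNNTA, so that a match is a description of the letters and no sign of binding. The GC content was 57.7% for Myog and 49.2% for Myf5, and 60.4% for Mef2a and 73.5% for Mef2d, beside a median of 52.3% over all windows.

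Related members could exchange reads where their transcripts are alike, and only identical runs were measured here. The longest identical run between transcripts of Mef2c and Mef2d was tgctcaagtacaccgagtacaacgagcc, with 28 bases. Between Myf5 and Myod1 it was cgcaaggccgccaccatgcgcgagcg, with 26 bases, and between Mef2a and Mef2c it was gaatttgataatatgat, with 17 bases. No pair of members shared a longer run than 28 bases. Exons of Mef2a overlap those of Lysmd4 on the opposite strand, and exons of Mef2d overlap the antisense gene 1700113A16Rik. The handling of strand is not given in the sources used here, so reads in these overlaps cannot be assigned.

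Several features of the libraries bear on all values below. Ucp1, the defining transcript of brown fat, was between 1184 and 6697 CPM (counts per 1000000 of the library's total, after scaling by the TMM method) in the 22 libraries. Cpeb2 lay between 7.69 and 14.3 CPM in the untreated WT libraries and between 2.10 and 11.7 CPM in the libraries labelled KO. The library labelled KO 1, at 11.7 CPM, lay inside the WT range, so KO 1 to KO 5 name libraries by their label only. In the AAV cohort, Cpeb2 was between 4.33 and 5.55 CPM in KO and between 10.5 and 14.0 CPM in WT, and Prdm16 was between 23.9 and 40.2 CPM with AAV-GFP and between 45.9 and 127.8 CPM with AAV-PRDM16. In 6 of the 10 untreated libraries, Xist was at 104.3 CPM or more and Y-linked transcripts at 1.17 CPM or less, which goes against the label male: these were WT 3, WT 5, KO 1, KO 3, KO 4 and KO 5. WT 4 held both, with Xist at 14.0 CPM and Y-linked transcripts at 115.6 CPM, and so did KO 2, at 1.65 and 77.0 CPM. Xist was at 0.0876 CPM in WT 1 and 0.0310 CPM in WT 2. The cause was not tested. A count of 4 was found for 785 genes in WT 1, more than a count of 3, with 515, or of 5, with 277, and an excess of this kind was seen in WT 2 and in the 12 AAV libraries, and less so in WT 3, with 565, 585 and 421 genes at 3, 4 and 5 counts. A count of 4 may therefore not be 4 independent reads.

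Of the MyoD family, only Myf6 was read in most untreated libraries. Its counts in WT 1 to WT 5 were 12, 8, 173, 0 and 5, and in KO 1 to KO 5 they were 1030, 681, 16, 0 and 34. WT 3, KO 1 and KO 2 stood far above the other 7 libraries, and the groups overlapped. As CPM, Myf6 was 10.0 in KO 1, 6.81 in KO 2 and 2.54 in WT 3, and at most 0.426 elsewhere. The means were 0.548 ± 1.11 (SD, n = 5) in WT and 3.48 ± 4.64 (SD, n = 5) in KO. In a bulk sample, more muscle cells and more muscle RNA per cell cannot be told apart.

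Myog counts were 36 in WT 3, 205 in KO 1, 113 in KO 2 and 21 in KO 5. They were 0 in the other 4 WT libraries and in KO 3 and KO 4. Myod1 was found in the same 4 libraries, with 13 counts in WT 3, 78 in KO 1, 30 in KO 2 and 4 in KO 5. The order of the libraries was KO 1, KO 2, WT 3, KO 5 for Myod1, Myog and Myf6 alike. Myf5 was read in KO 1 with 6 counts and in KO 2 with 29 counts, and in no WT library. A count of 0 allows up to 3 counts, which is between 0.0186 and 0.0596 CPM in these libraries and covers counting error only.

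Pax7 had 3 counts in WT 2, 13 in KO 1 and 16 in KO 2, and 0 in the other 7 untreated libraries. Mymk had 10 counts in KO 1 and 0 in the other 9. Thus KO 1 was the only one of the 22 libraries with all 9 members above 0. KO 4 and WT 4 had none of the 6 muscle-restricted members.

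**Figure D1:**
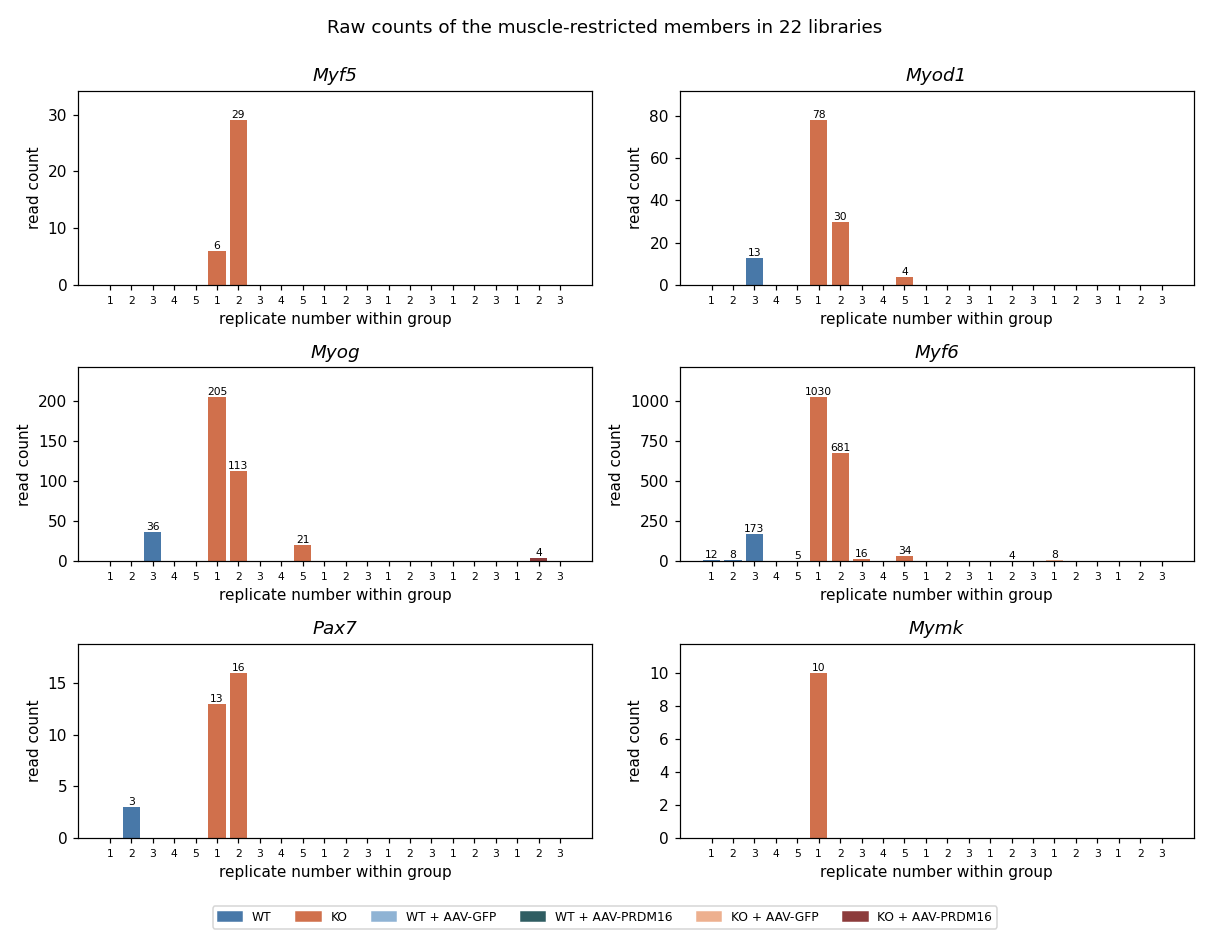
Raw read counts (vertical axis, from 0, with a scale for each gene) of Myf5, Myod1, Myog, Myf6, Pax7 and Mymk in each library, ordered by group (colour) and replicate number. KO 1, KO 2 and WT 3 of the untreated cohort carry most counts, with 1030, 681 and 173 counts of Myf6, and the AAV libraries have 8 counts of Myf6 at most.

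The filter on low counts left 4 of the 9 members for testing in the untreated cohort (Myf6, Mef2a, Mef2c and Mef2d) and 3 of 9 in the AAV cohort (the MEF2 factors). Tests were two-sided and used the quasi-likelihood method of edgeR, and the FDR is the p-value after Benjamini-Hochberg adjustment over all genes tested. Myf6 had a log2 fold change (log2FC) of 2.70 in the libraries labelled KO against WT, with a standard error (SE) of 1.65, a 95% interval from -0.89 to 6.29 and an FDR of 0.389. None of the 4 members was called at an FDR of 0.05, in a comparison where 0 of 17869 genes (0%) were. At an unadjusted p under 0.05, 1 of the 4 members passed (Mef2a), where 15.9% of all genes did. DESeq2 also called 0 members and 0 genes at an FDR of 0.05. At the looser threshold of the study, at least 2-fold with an FDR of at most 0.5, Myf6 was higher in KO, as were 6.04% of all genes. Without WT 3 the log2FC of Myf6 was 6.08 (FDR 0.182), and without KO 1 it was 1.79 (FDR 0.549). With the presence or absence of Y-linked transcripts as a covariate it was 3.24 (FDR 0.576). That threshold was no longer met without WT 1, WT 2, KO 1 or KO 5.

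The 5 untested members had too few counts for a fold change with meaning. When the filter was left out, Myog had a log2FC of 2.79 (SE 1.78, FDR 0.43) and Myod1 of 2.67 (SE 1.75, FDR 0.445). All WT counts of both genes came from WT 3, so these values rest on 1 WT library and are no measure of size. Myf5 and Mymk were at 0 in every WT library and Pax7 had 3 WT counts in all, so no fold is given for them.

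Mature muscle transcripts were high in the same libraries. The list for mature skeletal muscle held 26 genes, among them the actin Acta1, the creatine kinase Ckm and the fast myosin Myh4, and all 26 were found in 8 of the 10 untreated libraries. Summed over the list, WT libraries ranged from 75.4 to 4565 CPM with a median of 261.5, and KO libraries from 64.4 to 9372 CPM with a median of 1528. The list took 1.38% of the counts in KO 2, 0.876% in KO 1, 0.427% in WT 3, 0.151% in KO 5 and at most 0.027% in the other 6. Acta1 was at 1290 CPM in KO 2, 892 in KO 1, 495 in WT 3 and 276 in KO 5, and at 1.01 CPM in KO 4. Of the 26 genes, 26 had a positive log2FC in KO against WT, and 0 were called at an FDR of 0.05. At 2-fold with an FDR of 0.5, 17 were higher in KO, where 6.04% of all genes were. The genes were high in the same libraries, so they are not independent of each other.

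Set against these counts, the regulators spanned a narrower range in the libraries where they were read. Myf6 had 1173 counts per 1000000 mature muscle counts in KO 1, 727 in KO 2, 862 in KO 3 and 279 in KO 5, against 556 in WT 3, 402 in WT 1, 340 in WT 5 and 182 in WT 2. The groups overlapped on this scale, and WT 4 and KO 4 had no Myf6 count. Myog had 233 per 1000000 mature muscle counts in KO 1, 172 in KO 5, 121 in KO 2 and 116 in WT 3, and Myod1 had 88.8, 32.8, 32.0 and 41.8 in the same order. With each library's mean log2 CPM over the mature muscle list as a covariate, the log2FC of Myf6 was 0.53 (SE 0.58, FDR 0.652) in place of 2.70. Over the 10 libraries, log2 CPM of Myf6 correlated with this score at a Pearson r of 0.989. A smaller fold follows from that likeness, and the fit cannot separate genotype from muscle content. The list contains genes that were also read where other muscle transcripts were few. Its Myl1 had a mean of 3559 counts in the AAV cohort, where Ckm had 65. The ratio is therefore least certain in libraries with few muscle counts.

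**Figure D2:**
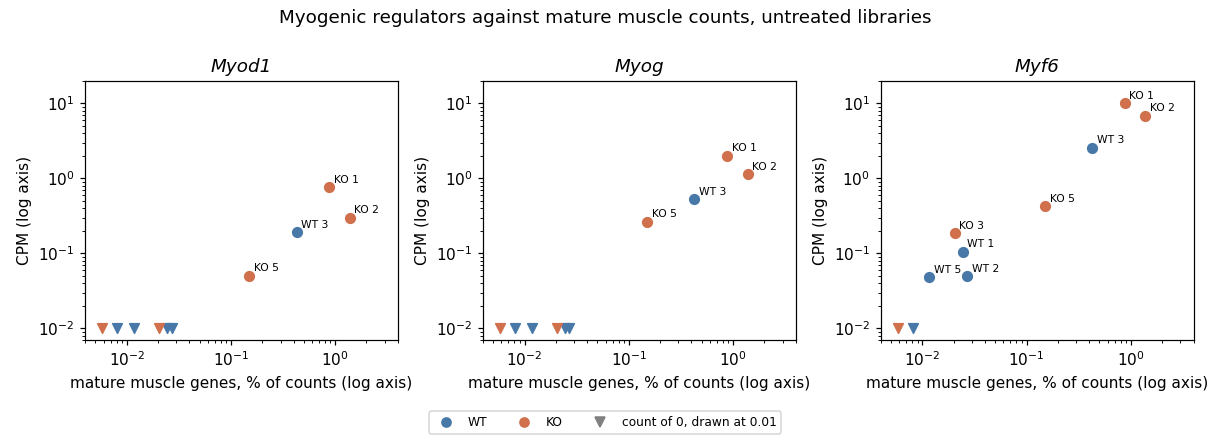
CPM of Myod1, Myog and Myf6 (vertical, log axis) against the share of counts on 26 mature muscle genes (horizontal, log axis, %) in the 10 untreated libraries; triangles stand for a count of 0, drawn at 0.01. KO 2 (1.38%), KO 1 (0.876%), WT 3 (0.427%) and KO 5 (0.151%) are the libraries with Myod1 and Myog above 0.

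Genes whose pattern over the 10 untreated libraries was most like that of the regulators included known muscle genes. The likeness was Pearson's r of log2 CPM among 12489 genes, and is a description of libraries that differ in muscle content. For Myf6 the 3 closest were Asb15 (r = 0.988), the muscle LIM protein Csrp3 (0.987) and Asb11 (0.986), with 140 genes above 0.9. For Myog they were the tropomyosin Tpm2 (0.988), Asb2 (0.987) and Eef1a2 (0.986), and for Myod1 the methyltransferase Smyd1 (0.988), the filamin Flnc (0.984) and Hspb7 (0.984).

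In the AAV cohort the MyoD family was at or near 0. Myf5, Myod1, Pax7 and Mymk were at 0 in all 12 libraries, where 0 allows up to 3 counts, between 0.0203 and 0.0501 CPM. Myog had 4 counts in KO + AAV-PRDM16 2 and 0 in the other 11. Myf6 had 8 counts in KO + AAV-GFP 1 and 4 counts in WT + AAV-PRDM16 2 and 0 in the other 10. These 2 libraries had the highest mature muscle sums of the cohort, 172.7 and 79.6 CPM, where the other 10 had between 36.0 and 47.1 CPM. Much of such a sum was Myl1, with a mean of 3559 counts, where the whole list had between 2811 and 11594 counts per library. All 26 genes of the list were found in KO + AAV-GFP 1, 23 in WT + AAV-PRDM16 2 and 24 in KO + AAV-PRDM16 1, whereas Ckm and Myh4 were at 0 in the remaining 9. The 6 muscle-restricted members had too few counts to be tested between the AAV groups.

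The MEF2 transcripts were found in all 22 libraries. Levels between genes are compared per kilobase of annotated exon. This length joins all annotated exons, with 14681 bases for Mef2a, 15715 for Mef2c and 5985 for Mef2d. The transcripts in use may be shorter, so the order of the genes depends on it. As plain counts, Mef2a was between 0.247 (KO 5) and 1.44 (KO + AAV-PRDM16 3) times Mef2d. Per kilobase, Mef2d was the most abundant in every library, with group means between 14.9 and 16.9 CPM per kb. Mef2a followed with group means between 3.77 and 6.97 CPM per kb, and Mef2c with group means between 0.456 and 0.967 CPM per kb. The ranges of the 3 genes did not overlap in any library group. Myf6 reached 7.92 CPM per kb in KO 1 and 5.39 in KO 2, above Mef2a in these libraries, with 4.89 and 5.28. In the other 8 untreated libraries it was at most 2.01. Myog at its highest, in KO 1, was at 1.33 CPM per kb, Myod1 at 0.407, Myf5 in KO 2 at 0.139, Mymk in KO 1 at 0.0643 and Pax7 in KO 2 at 0.0273.

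Mef2a was at 100.2, 99.6, 76.4, 71.7 and 93.6 CPM in WT 1 to WT 5, and at 71.8, 77.6, 38.2, 59.9 and 28.9 CPM in KO 1 to KO 5. KO 1 and KO 2 lay inside the WT range, and KO 3, KO 4 and KO 5 below it. The means were 88.3 ± 13.3 CPM in WT and 55.3 ± 21.1 CPM in KO (SD, n = 5 each). The edgeR log2FC was -0.68 (SE 0.28, 95% interval -1.29 to -0.06), with an unadjusted p of 0.0343 in the model over all genes and an FDR of 0.305. It ranged from -0.82 to -0.52 when 1 library was left out, was -0.79 (FDR 0.177) without KO 1, was -0.57 (FDR 0.576) with the presence or absence of Y-linked transcripts as a covariate and was -0.49 (FDR 0.867) without WT 1 and WT 2. Lysmd4, on the opposite strand, had counts equal to between 4.76% and 5.95% of those of Mef2a in WT. In KO 1 to KO 5 they were 7.91%, 5.14%, 13.0%, 7.52% and 12.5%, highest in KO 3 and KO 5, where Mef2a itself was lowest in CPM.

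Many other genes followed Mef2a over these 10 libraries. Its closest were Wdr3 (r = 0.985), Pibf1 (0.985) and Twsg1 (0.984), and 861 of 12489 genes had r above 0.9. The median exon length of these 861 was 6610 bases, against 4571 bases for all 12489, and that of Mef2a is 14681 bases. Whether exon length has a part in the lower Mef2a of KO 3 and KO 5 was not tested. With the mature muscle score as a covariate the log2FC of Mef2a was -0.76 (FDR 0.406). In the AAV cohort, where Mef2a ranged from 82.1 to 123.8 CPM, 8 genes had r above 0.9 with Mef2a, led by Ckb (0.961), Tiparp (0.930) and Paf1 (0.921).

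Mef2c was at 7.99, 6.34, 19.7, 12.6 and 8.32 CPM in WT 1 to WT 5, and at 28.2, 30.6, 5.41, 5.46 and 6.30 CPM in KO 1 to KO 5. The muscle-rich libraries KO 2, KO 1 and WT 3 were the highest of the 10, and KO 3, KO 4 and KO 5 were below every WT library. KO 5, which also held muscle transcripts, was not raised. The log2FC was 0.47 (SE 0.55, 95% interval -0.72 to 1.66, FDR 0.641), and -0.32 (SE 0.40, FDR 0.696) with the mature muscle score as a covariate. Mef2c was most like Synpo2 (r = 0.962), Trim7 (0.962) and Fhl1 (0.958). The summed endothelial markers were at 868 CPM in KO 2 and at 297 CPM in KO 1, the highest and the lowest of the 10, while Mef2c was high in both, and their part in the values of Mef2c was not tested.

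Mef2d was at 114.2, 109.3, 83.5, 84.1 and 66.4 CPM in WT 1 to WT 5, and at 91.9, 101.5, 104.2, 84.4 and 117.2 CPM in KO 1 to KO 5. All KO libraries lay between 84.4 and 117.2, and the WT libraries reached from 66.4 to 114.2, so the groups overlapped. The log2FC was 0.13 (SE 0.22, 95% interval -0.35 to 0.60, FDR 0.756). None of the 4 tested members had groups that did not overlap, where 1.40% of all genes did. Mef2d was most like Rnf123 (r = 0.953), Zfr2 (0.946) and Wiz (0.943), with 14 genes above 0.9. Counts of 1700113A16Rik were at most 1.31% of those of Mef2d in these 10 libraries.

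**Figure D3:**
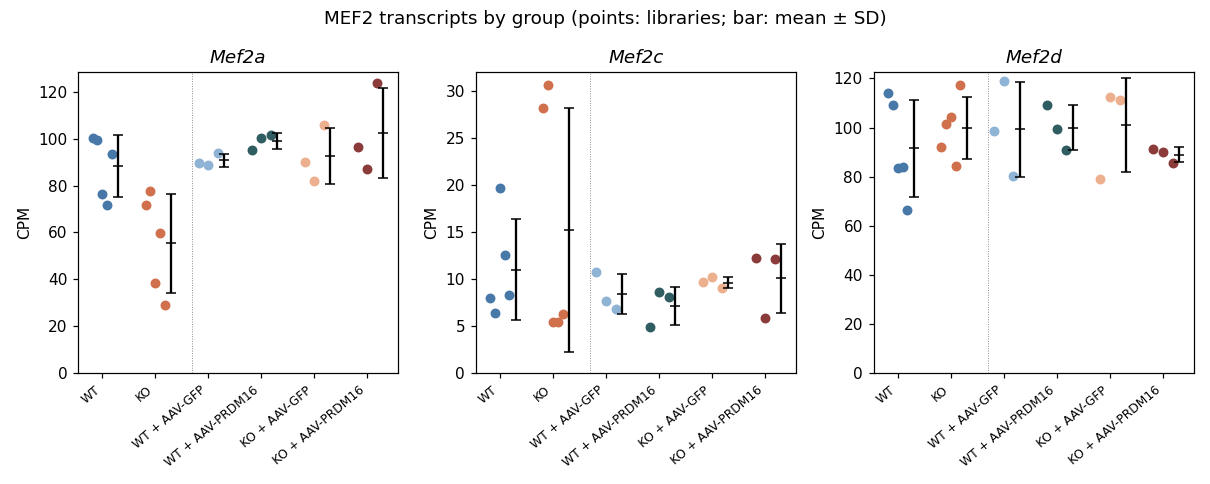
CPM of Mef2a, Mef2c and Mef2d (vertical axis from 0) in each library (points, in replicate order) by group, with the mean and SD beside the points; the dotted line separates the cohorts, which were scaled separately. In the untreated cohort the lowest Mef2a is 28.9 CPM, in KO 5, and the highest Mef2c is 30.6 CPM, in KO 2.

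The makeup of the MEF2 pool was set out as the share of each gene in the summed level per kilobase, which depends on the same annotated exon lengths. Mef2a made up between 24.8% and 35.4% of the summed MEF2 CPM per kb in WT and between 8.97% and 22.2% in KO. Mef2d made up between 61.6% and 72.3% in WT and between 69.7% and 89.2% in KO, with overlap. These shares were chosen after the values were seen and were not tested. KO 3, at 12.8%, and KO 5, at 8.97%, were the lowest for Mef2a. In the AAV groups Mef2a made up between 22.3% and 30.7% in KO + AAV-GFP and between 22.9% and 31.6% in WT + AAV-GFP. With AAV-PRDM16 it made up between 27.8% and 35.9% in KO and between 25.9% and 30.6% in WT, where the mean was higher in KO, at 30.9%, than in WT, at 28.3%. The groups overlapped with either virus. Mef2c made up between 1.23% and 3.44% in the AAV cohort, and 8.13% in KO 1, 8.05% in KO 2 and 6.13% in WT 3.

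**Figure D4:**
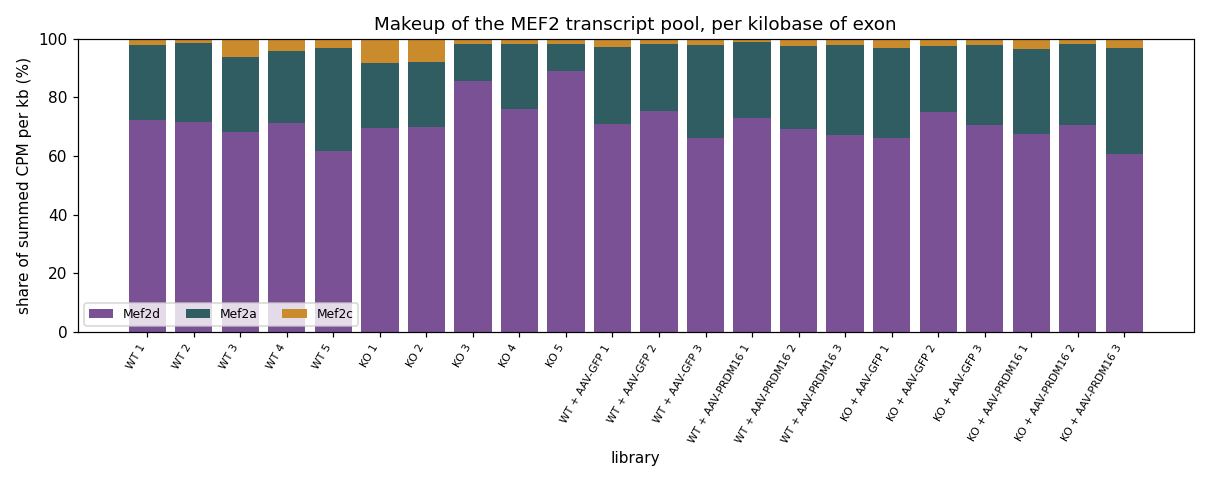
Share of the summed MEF2 level per kilobase of exon (vertical axis, %) taken by Mef2d, Mef2a and Mef2c in each of the 22 libraries. Mef2d takes at least 60.9% in every library, and KO 5 has the smallest Mef2a share, 8.97%.

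In the AAV cohort no difference in a MEF2 factor passed a test. Mef2a was at 89.6, 88.6 and 93.9 CPM in WT + AAV-GFP, at 95.3, 100.4 and 101.7 in WT + AAV-PRDM16, at 89.9, 82.1 and 105.7 in KO + AAV-GFP and at 96.3, 87.0 and 123.8 in KO + AAV-PRDM16. WT + AAV-PRDM16 lay above WT + AAV-GFP in all libraries, with a log2FC of 0.13 (SE 0.13, 95% interval -0.16 to 0.41, FDR 0.901). It was the 1 member of 3 whose groups did not overlap there, where 14.2% of all genes did, 6.40% with the higher level in AAV-PRDM16. The other comparisons of 2 groups had no such member, where the share of all genes was 13.4% for KO against WT with AAV-GFP, 22.8% for KO against WT with AAV-PRDM16, 9.43% for AAV-PRDM16 against AAV-GFP in KO and 13.2% for KO + AAV-PRDM16 against WT + AAV-GFP.

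Mef2c was at 10.8, 7.61 and 6.76 CPM in WT + AAV-GFP, at 4.85, 8.58 and 8.05 in WT + AAV-PRDM16, at 9.68, 10.2 and 8.98 in KO + AAV-GFP and at 12.2, 5.82 and 12.1 in KO + AAV-PRDM16. KO against WT with AAV-PRDM16 gave the largest log2FC of a MEF2 factor in this cohort, 0.49 (SE 0.29, 95% interval -0.14 to 1.11, FDR 0.496), with overlapping groups. It was 0.76 without KO + AAV-PRDM16 2, the lowest FDR with 1 library left out being 0.218. With AAV-GFP the same comparison gave 0.20 (SE 0.29, FDR 0.914), and the interaction of genotype and virus was 0.29 (SE 0.40, FDR 1). The genes most like Mef2c over these 12 libraries were Sgms1 (r = 0.868), the natriuretic peptide receptor Npr3 (0.866) and Tal1 (0.863), a factor of blood and endothelial cells. The sum of the 7 endothelial markers was between 382 and 425 CPM in WT + AAV-PRDM16 and between 430 and 550 CPM in KO + AAV-PRDM16, and it was between 376 and 494 CPM in WT + AAV-GFP and between 368 and 587 CPM in KO + AAV-GFP. Its part in the values of Mef2c was not tested.

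Mef2d means were 99.3 ± 19.4 CPM in WT + AAV-GFP, 99.9 ± 9.20 in WT + AAV-PRDM16, 100.9 ± 19.1 in KO + AAV-GFP and 89.0 ± 2.94 in KO + AAV-PRDM16 (SD, n = 3 each). KO + AAV-PRDM16, at 91.2, 90.1 and 85.7 CPM, was the narrowest group and overlapped the 3 others. Its log2FC was -0.17 (SE 0.16, FDR 0.697) against WT + AAV-PRDM16 and -0.18 (SE 0.16, FDR 1) against KO + AAV-GFP. Mef2d was most like Sprtn (r = 0.950), Noxred1 (0.929) and Snhg1 (0.924).

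None of the 3 MEF2 factors was called at an FDR of 0.05 in any AAV comparison, and none had an unadjusted p under 0.05. At an FDR of 0.05, the share of all 18899 genes called was 0.0529% for KO against WT with AAV-GFP, 0.0476% for KO against WT with AAV-PRDM16 and 0.00529% for KO + AAV-PRDM16 against WT + AAV-GFP. It was 0% for AAV-PRDM16 against AAV-GFP in WT and in KO and 0% for the interaction. At an unadjusted p under 0.05 the shares were 9.18%, 13.7% and 7.93% for the first 3, 7.29% and 6.41% for the virus in WT and in KO, and 3.19% for the interaction. DESeq2 called 0 of the 3 factors at an FDR of 0.05 in each of the 6 comparisons, although it called more of 18878 genes: 240 for KO against WT with AAV-GFP, 626 with AAV-PRDM16, 157 for KO + AAV-PRDM16 against WT + AAV-GFP, 147 and 262 for the virus in WT and in KO, and 1 for the interaction. The 95% intervals limit a change of Mef2a to between -0.26 and 0.31 for KO against WT with AAV-GFP and of Mef2d to between -0.32 and 0.37, on the log2 scale. The comparisons share control libraries and are not independent of each other.

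**Figure D5:**
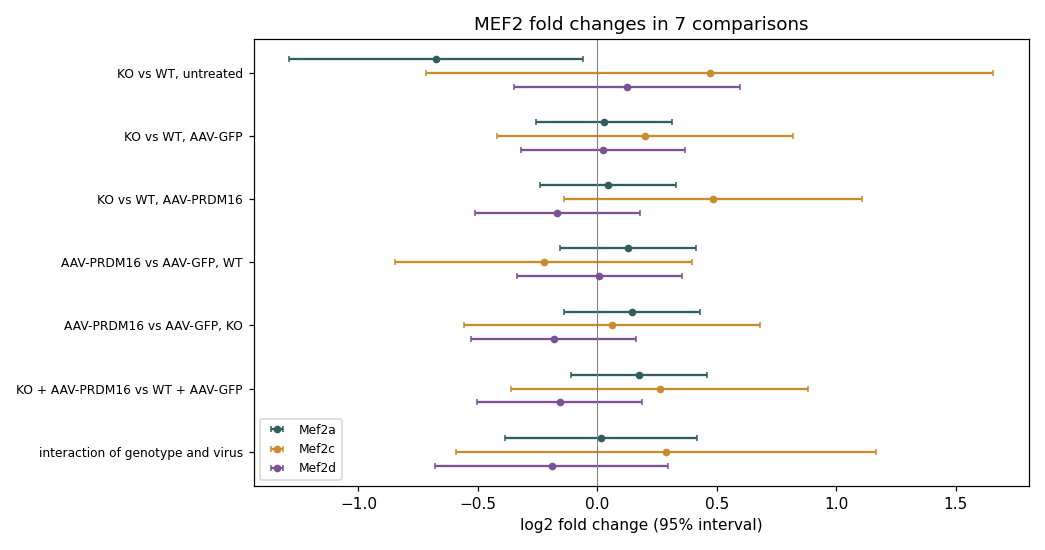
Log2 fold changes (horizontal axis) of Mef2a, Mef2c and Mef2d in each of the 7 comparisons (rows), with 95% intervals computed from the F statistic of edgeR's quasi-likelihood test. Positive values are higher in the group named first. The interval of Mef2a in the untreated cohort, from -1.29 to -0.06, is the only one that leaves out 0, at an FDR of 0.305.

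Other genes of the pathway were read from 5 lists, and no gene of these lists was called at an FDR of 0.05 in any of the 7 comparisons. In the untreated cohort, 6 of 10 satellite cell genes were tested, with a median log2FC of 0.41 where that of all genes was 0.04, and 1 was higher and 1 lower at an unadjusted p under 0.05. Of all genes, 15.9% passed that p, which is the background of the counts in the other lists too. The syndecan Sdc4 had a log2FC of 0.59 (FDR 0.43), the integrin Itga7 0.50 (FDR 0.305) and the hepatocyte growth factor receptor Met -1.19 (FDR 0.305). These are also expressed outside muscle, and the genes more restricted to satellite cells were sparse. The muscle cadherin Cdh15 had 27 counts in WT 3, 141 in KO 1, 155 in KO 2 and 27 in KO 5, and at most 4 in the other 6, and the calcitonin receptor Calcr had 14 in KO 1, 11 in KO 2 and 0 elsewhere.

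The E proteins, partners of the MyoD family, and the Id proteins, which bind E proteins away from it, were all tested, 7 of 7, with a median of -0.19, 1 higher and 1 lower at an unadjusted p under 0.05. The 1 higher was the E protein Tcf3, with 0.56 (FDR 0.309), and the 1 lower the E protein Tcf12, with -0.80 (FDR 0.305). Tcf4 had a log2FC of -0.43 (FDR 0.484). The Id genes were mixed, with 0.68 for Id1 (FDR 0.388), 0.99 for Id3 (FDR 0.339), -0.85 for Id2 (FDR 0.397) and -0.19 for Id4 (FDR 0.776). Of the inhibitors of the MyoD family and of myogenesis, 8 of 8 were tested, with a median of 0.85, 1 higher and 1 lower. The repressor Zeb1 had -0.77 (FDR 0.305), the Notch target Hes1 0.30 (FDR 0.737) and Twist1 0.16 (FDR 0.683).

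Among partners and regulators of MEF2, 8 of 9 were tested, with a median of 0.33 and 1 higher (Hdac5). The class IIa histone deacetylases, which repress MEF2 targets, had a log2FC of 0.53 for Hdac5 (FDR 0.311) and 0.62 for Hdac7 (FDR 0.403). Of the same class, Hdac4 had -0.16 (FDR 0.77) and Hdac9 0.12 (FDR 0.906), so its values were mixed. The MEF2 inhibitor Cabin1 had 0.12 (FDR 0.834). The muscle cofactor Vgll2 followed the regulators, with 163 counts in WT 3, 996 in KO 1, 997 in KO 2 and 52 in KO 5, and at most 15 in the other 6. Of the genes of fusion and new fibres, 5 of 11 were tested, with a median of 0.87 and 1 higher (Myl4). The perinatal myosin Myh8 had 3.63 (SE 1.87, FDR 0.339), with 224 counts in WT 3, 1124 in KO 1 and 3567 in KO 2, and at most 39 in the other 7. Myl4 had 0.81 (FDR 0.308) and Ncam1 0.50 (FDR 0.588). Mymx, the partner of Mymk in fusion, and the fetal acetylcholine receptor subunit Chrng were at 0 in all 22 libraries.

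The Eya cofactors, which act upstream of the MyoD family, gave mixed values, and Eya1 and Eya2 were named after their values were seen. Eya2 was at 1.24 ± 1.42 CPM in WT and 6.23 ± 7.03 CPM in KO (SD, n = 5 each), with counts from 34 to 484 and from 61 to 1564. Its log2FC was 2.33 (SE 0.91, FDR 0.305), which is past 2-fold with an FDR of 0.5, where 6.04% of all genes were higher in KO. With AAV-GFP it was 2.39 for KO against WT (SE 0.76, FDR 0.374), where the KO counts ran from 60 to 1207 and the WT counts from 60 to 127, and with AAV-PRDM16 it was 1.503 (SE 0.76, FDR 0.413). Eya1 had a log2FC of 0.40 (FDR 0.75) in the untreated cohort, 1.78 (SE 0.52, FDR 0.335) with AAV-GFP and 0.49 (FDR 0.731) with AAV-PRDM16. Eya3 had -0.16, 0.06 and 0.19 in the same order, and Eya4, which had few counts, 0.88, 1.48 and 1.36 (lowest FDR 0.449 for Eya3 and 0.73 for Eya4). At 2-fold with an FDR of 0.5, Eya2 was also higher in KO with either virus, and Eya1 with AAV-GFP. Of all genes, 1.43% were higher in KO at this threshold with AAV-GFP and 3.35% with AAV-PRDM16.

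In the AAV cohort, the tested genes were 6 of 10 for satellite cells, 7 of 7 for E and Id proteins, 7 of 8 for inhibitors, 8 of 9 for MEF2 partners and 2 of 11 for fusion and new fibres. Vgll2, Calcr and Chrnd were at 0 in all 12 libraries. For KO against WT the list medians were 0.13 with AAV-GFP and 0.13 with AAV-PRDM16 for satellite cell genes, 0.09 and 0.13 for E and Id proteins, 0.05 and -0.17 for inhibitors, -0.10 and 0.22 for MEF2 partners and 0.07 and 0.04 for fusion and new fibres, beside 0.01 for all genes. At an unadjusted p under 0.05, where 9.18% of all genes passed with AAV-GFP, 4 genes of these lists did: the adhesion molecule Vcam1, a satellite cell gene of the list that endothelial cells also express, with 1.49 (FDR 0.308), the MEF2 cofactor Mamstr with 0.85 (FDR 0.476), Twist1 with -0.56 (FDR 0.377) and Hdac5 with -0.30 (FDR 0.409). With AAV-PRDM16, where 13.7% passed, they were Mamstr with 0.84 (FDR 0.309), Tcf4 with 0.47 (FDR 0.285) and Zeb1 with 0.26 (FDR 0.266). For the virus, Vcam1 had -1.39 (FDR 0.388) in KO, where 6.41% passed, and Hdac4 had -0.38 (FDR 0.559) in WT, where 7.29% passed. For KO + AAV-PRDM16 against WT + AAV-GFP they were Itga7 with 0.51 (FDR 0.46) and Mamstr with 0.84 (FDR 0.579), where 7.93% passed, and for the interaction Hdac5 with 0.32 (FDR 1), where 3.19% passed. Those of these genes that are not among the 3 most abundant of their list were named after their values were seen.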

How the data were processed

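BAT mRNA of 22 mice was sequenced with 1 library per mouse, and the authors deposited 1 table per cohort of whole-number counts on 55487 Ensembl genes, without normalization. The submitters' processing notes name bcl2fastq 2.20, Trimmomatic 0.36, HISAT2 and GRCm38.p6. The counting tool and the handling of strand and duplicate reads are not given in the sources used here. Symbols and exon lengths came from GENCODE M21 (55227 identifiers matched) and promoters from RefSeq. Groups were taken from the sample labels.

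In R 4.3.3, genes were kept by filterByExpr of edgeR 4.0.16 (17869 untreated, 18899 AAV), scaled by TMM and compared with its two-sided quasi-likelihood test, p-values being adjusted by Benjamini-Hochberg over all genes tested. The cohorts were fitted separately and the 12 AAV libraries in 1 model. Correlations used log2 CPM with a prior count of 2. The fit was tested on simulated counts.

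The members and lists were chosen with earlier results of these data known. Named genes are the members, for each member with a mean count of at least 10 the 3 most correlated genes with a mean count of at least 50, and up to 3 genes per pathway list with the highest mean count. Cdh15, Calcr, Chrnd, Chrng, Mymx, Vgll2, Tcf3, Tcf12, Id2, Id4, Hdac4, Hdac9 and the genes shown for muscle content were named after their values were seen. A further pathway list is reported only for its Eya genes. Lists of mature muscle and endothelial genes served as markers of other cells. The alternatives were RLE scaling, no filter, DESeq2 1.42.0, each library left out, the replicate number as a block, a mature muscle score or the presence of Y-linked transcripts (over 10 CPM) as a covariate, omission of WT 1 and WT 2 (named in another style in the study's own records), and only the 2 groups compared.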

Additional observations from a re-analysis of the deposited data

Results flagged for a closer look

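Within the untreated groups of 5, 6 of 16 tested sets of member levels held 1 library farther from the rest than Dixon's 95% limit allows. The limit assumes continuous values, for which chance gives about 1 in 20. In 4 of the 6 sets, Myod1, Myog and Pax7 in WT and Mymk in KO, the other 4 libraries were at 0, so any single library above 0 would be marked and that rate does not apply. WT 3 stood above the other WT libraries for Myf6 (2.54 CPM), Myog (0.528 CPM) and Myod1 (0.191 CPM). KO 2 stood above the other KO libraries for Myf5, at 0.290 CPM. KO 1 stood out for Mymk, at 0.0971 CPM from 10 counts, and WT 2 for Pax7, at 0.0186 CPM from 3 counts, the number that a count of 0 allows.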

How the results depend on the processing

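No member was called at an FDR of 0.05 under any alternative run. The count of members at 2-fold with an FDR of 0.5 in the untreated cohort, 1 as reported, was 6 with no filter on low counts. These 6 were Myf6 and the 5 untested members, whose counts are too few for a fold with meaning. The count was 0 with the mature muscle score as a covariate, without WT 1 and WT 2, and with a term for Y-linked transcripts. The count ranged from 0 to 2 when 1 library was left out, being 0 without WT 1, WT 2, KO 1 or KO 5 and 2 without WT 4, KO 3 or KO 4. The share of all genes past this threshold was not computed for the alternatives. The mature muscle score turned the log2FC of Mef2c in the untreated cohort to -0.324 and that of Mef2a in the interaction to -0.011, and no filter turned that of Mef2d for the virus in WT to -0.005. The causes were not tested. Leaving out 1 library gave log2FC from -0.081 to 0.108 for Mef2a and -0.110 to 0.174 for Mef2d for KO against WT with AAV-GFP, from -0.113 to 0.150 for Mef2a with AAV-PRDM16, from -0.125 to 0.159 for Mef2d for the virus in WT, from -0.013 to 0.249 for Mef2a and -0.107 to 0.340 for Mef2c for the virus in KO, and from -0.141 to 0.122 for Mef2a in the interaction. RLE scaling, DESeq2, the replicate block and fits of only the 2 groups compared turned no direction of a tested member.

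Same-numbered libraries did not deviate together, with correlations from -0.292 to 0.111 in the untreated cohort. This gave no sign that the numbers pair the mice, but 1 pair of libraries per number cannot exclude it. With the replicate block the log2FC was 4.24 (FDR 0.344) for Myf6 and -0.754 (FDR 0.213) for Mef2a in the untreated cohort, and the count of members called stayed at 0. With 5 or 3 mice per group, the filter left only Myf6 of the 6 muscle-restricted members for testing, in the untreated cohort alone. The other 5 were at 0 in most libraries. Myf6 counts summed to 198 in WT and 1761 in KO, and it was not called (edgeR, FDR 0.389). Differences well above a few counts per library could therefore also go undetected.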
